A study of Mus musculus with 15 samples.

Results

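Slit2, Robo1, Sema6d, Sema7a, Nrp1, Nrp2, Plxna1 and Plxnb2 are 8 genes of the Slit, semaphorin, neuropilin and plexin guidance systems, described here across 5 populations of 4T1 cells. They were selected on earlier results of these same libraries and then found by mapping each mouse symbol to its Entrez identifier. The 8 were found among 27179 identifiers, and all 8 were among the 12712 genes with enough counts to be tested.

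4T1 is an established mouse mammary carcinoma line, and RNA sequencing was done on 15 libraries, 3 biological replicates per population according to the labels. The parental population has the genotype WT. E1, E2, A and M are iRFP670 expressing: parental cells received the pNLS-iRFP670 plasmid, single cells were isolated, and each population is therefore 1 clone. All 5 grew in RPMI-1640 with fetal bovine serum and gentamicin, the clones also in G418 until the culture used for RNA, which was collected after 72 hours near 80% confluency. A difference between a clone and the parental population therefore belongs to 1 clone with its plasmid and drug history, and these cannot be told apart.

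Slits are large secreted proteins that bind Robo receptors on the cell surface. Semaphorins are secreted, membrane-spanning or lipid-anchored ligands, and plexins are their signalling receptors, with neuropilins as co-receptors that bind secreted class 3 semaphorins and also members of the VEGF family. First described as repellents and attractants of growing axons, these ligands and receptors also act in epithelial and tumour cells, on adhesion, migration and the actin cytoskeleton.

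The libraries held 20143111 to 36831801 counts, of which the 6 most abundant genes took 61.4 to 72.1%, so that 6164768 to 14206491 counts were left for all other genes. Levels are CPM, edgeR's counts scaled to a common library total after TMM normalisation. All 6 mammary epithelial markers were measured, with a summed level of 272 to 304 CPM in the parental population, 375 to 485 in E1, 433 to 466 in E2, 566 to 634 in A and 338 to 614 in M. The 7 endothelial markers summed to 0 to 0.604 CPM with Emcn at 0, and the 7 leukocyte markers to 0.14 to 1.24 CPM with Cd3e and Itgam among those at 0. Of the 6 fibroblast markers, which summed to 3.15 to 33.8 CPM, Dcn, Lum and Thy1 were at 0 and Pdgfra carried nearly all of the signal, with 7.13 ± 0.333 CPM (SD, n = 3) in the parental population and 26.4 ± 6.61 CPM in A. The 7 neural and glial markers summed to 9.23 to 17.6 CPM, with Snap25 at 0 and Mbp at 15.2 ± 0.72 CPM in the parental population and 8.36 ± 0.154 CPM in A. The summed epithelial markers were higher in each clone than in the parental population without overlap. In A the summed fibroblast markers were also higher, and the summed neural and glial markers lower, without overlap. The neural and glial sum was below the parental one (15.6 to 16.8 CPM) in M too, at 11.9 to 13.6 CPM. The fibroblast sum was below the parental one (6.85 to 7.56 CPM) in E1, at 3.15 to 5.71 CPM. The epithelial markers did not all move alike. Epcam, Krt7, Krt8 and Krt18 averaged higher in A. Cdh1 averaged lower, at 22.4 ± 3.31 CPM in A and 68.2 ± 12.9 CPM in the parental population. Krt19 averaged lower as well, at 3.18 ± 0.603 and 4.18 ± 1.14 CPM. A is also the clone where Sema6d, Sema7a and Slit2 below stood high, and the part of these markers in those levels was not tested. In bulk RNA, fewer cells with a transcript and less of it per cell cannot be told apart.

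The promoters of the 4 genes whose levels set the populations apart most are shown first, because their start regions can be set beside those levels. Each is 300 bases from RefSeq (GRCm38.p6), 250 before and 50 after the annotated start, written 5′ to 3′ on the strand of the gene. Of the 8 genes, 7 had an entry. Capitals mark any match, on either strand, to the TATA-type motif TATAAA, the CAAT-box motif CCAAT, the Sp1-type motif GGGCGG, the AP-1 motif TGANTCA or the E-box motif CACGTG.
Slit2, chr5:47982905-47983204, plus strand: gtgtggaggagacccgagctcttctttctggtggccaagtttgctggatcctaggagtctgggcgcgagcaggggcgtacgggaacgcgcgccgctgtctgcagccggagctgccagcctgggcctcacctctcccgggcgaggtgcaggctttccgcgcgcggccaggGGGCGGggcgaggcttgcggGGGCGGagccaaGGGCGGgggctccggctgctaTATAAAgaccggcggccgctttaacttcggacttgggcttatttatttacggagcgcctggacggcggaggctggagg
Sema6d, upstream start, chr2:124089719-124090018, plus strand: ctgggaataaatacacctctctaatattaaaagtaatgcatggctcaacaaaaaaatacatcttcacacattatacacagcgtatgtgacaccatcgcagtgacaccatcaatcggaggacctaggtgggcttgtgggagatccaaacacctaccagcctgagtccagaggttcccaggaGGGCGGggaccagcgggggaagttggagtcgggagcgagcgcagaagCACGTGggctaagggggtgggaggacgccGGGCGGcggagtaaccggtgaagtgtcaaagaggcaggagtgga
Sema6d, internal start, chr2:124653331-124653630, plus strand: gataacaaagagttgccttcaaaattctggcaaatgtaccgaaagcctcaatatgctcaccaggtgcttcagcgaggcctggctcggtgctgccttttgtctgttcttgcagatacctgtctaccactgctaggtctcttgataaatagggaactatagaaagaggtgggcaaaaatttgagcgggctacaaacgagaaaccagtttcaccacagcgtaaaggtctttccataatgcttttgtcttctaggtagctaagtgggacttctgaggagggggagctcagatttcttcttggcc
Sema7a, chr9:57939862-57940161, plus strand: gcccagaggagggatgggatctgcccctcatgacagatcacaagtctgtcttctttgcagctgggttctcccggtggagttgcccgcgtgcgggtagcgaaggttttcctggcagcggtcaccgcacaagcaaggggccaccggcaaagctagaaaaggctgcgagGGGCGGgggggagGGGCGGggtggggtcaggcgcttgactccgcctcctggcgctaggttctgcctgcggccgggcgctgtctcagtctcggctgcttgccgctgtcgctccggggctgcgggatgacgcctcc
Nrp1, chr8:128358823-128359122, plus strand: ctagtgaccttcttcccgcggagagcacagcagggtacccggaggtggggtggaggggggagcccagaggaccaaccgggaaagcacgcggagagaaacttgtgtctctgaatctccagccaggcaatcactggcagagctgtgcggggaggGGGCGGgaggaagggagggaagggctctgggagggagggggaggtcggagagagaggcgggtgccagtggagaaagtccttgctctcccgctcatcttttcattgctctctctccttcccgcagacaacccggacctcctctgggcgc

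The Slit2 window held 1 TATAAA, at -28 from the start of this entry, and 3 GGGCGG. It begins inside the Slit2 gene span given below, from 47981291. The Sema7a and Nrp1 windows also begin inside their gene spans, so these starts are not the first base of the span. The upstream Sema6d window held 2 GGGCGG and 1 CACGTG, and the internal one held none of the 5 motifs. Sema7a had 2 GGGCGG and Nrp1 had 1. Among all 32851 promoters of the same length, 13.6% held TATAAA, 37.4% CCAAT, 35.7% GGGCGG, 7.81% TGANTCA and 7.15% CACGTG. The Slit2 window was 68.0% G or C with 30 CpG dinucleotides. A match describes these letters and is not a measured binding site. The counts per gene do not say which start was used, for Sema6d or for the other genes.

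The ligands come first. Slit2 (gene 20563, chromosome 5, 47981291 to 48307735, GRCm38, plus strand) encodes a secreted ligand of Robo receptors. It was measured at 2.83, 1.76 and 2.52 CPM in the parental replicates 1 to 3, at 3.36, 2.09 and 2.65 CPM in E1 and at 2.39, 3.07 and 4.77 CPM in E2. In A the values were 6.74, 11.2 and 13.6 CPM, and in M they were 14.5, 6.81 and 12.9 CPM. All 6 libraries of A and M stood above all 9 libraries of the other populations. The difference in mean log2 CPM from the parental population was 2.08 (SE 0.36) in A and 2.19 (SE 0.392) in M, against 0.18 (SE 0.278) in E1 and 0.48 (SE 0.348) in E2. In the order M, A, E2, E1, parental, the step from A to E2 was the one where the libraries did not overlap.

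Sema7a (gene 20361, chromosome 9, 57939596 to 57962865, GRCm38, plus strand) encodes a semaphorin held at the membrane by a lipid anchor, known to bind plexin C1 and integrins. It was measured at 2.46, 1.22 and 2.39 CPM in the parental replicates, at 3.36, 2.83 and 2.14 CPM in E1 and at 3.43, 2.51 and 4.95 CPM in E2. The A libraries had 41.3, 37.6 and 44.5 CPM, and the M libraries 8.06, 8.85 and 10.3 CPM. A stood clear of M, and M stood clear of the rest. The mean in A was 20.3 times the parental mean, a log2 difference of 4.36 (SE 0.324), and in M it was 4.47 times, a log2 difference of 2.18 (SE 0.332). E2 was 0.83 higher (SE 0.421) with its lowest library just above the highest parental one, and E1 overlapped both. Plxnc1, the plexin that Sema7a is known to bind, was at a mean of 0.35 to 0.699 CPM in every population.

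Sema6d (gene 214968, chromosome 2, 124089943 to 124667789, GRCm38, plus strand) encodes a membrane-spanning semaphorin that binds plexin A receptors. The parental replicates had 0.604, 2.83 and 1.39 CPM, the E1 replicates 0.484, 0.65 and 0.0631 CPM, and the E2 replicates 0.52, 1.36 and 2.52 CPM. In A the values were 19.7, 19.2 and 22.9 CPM, and in M 3.35, 6.35 and 4.27 CPM. As for Sema7a, A was above M and M above the other populations with no overlap, while parental, E2 and E1, in that order, overlapped. The log2 difference from the parental population was 3.86 (SE 0.614) in A, 1.69 (SE 0.664) in M, -0.13 (SE 0.87) in E2 and -1.92 (SE 0.974) in E1. E1 replicate 3 rested on 2 counts, and without it the E1 difference was -1.16. The mean in A was 51.6 times that in E1, the widest ratio between 2 populations among the 8 genes.

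**Figure D1:**
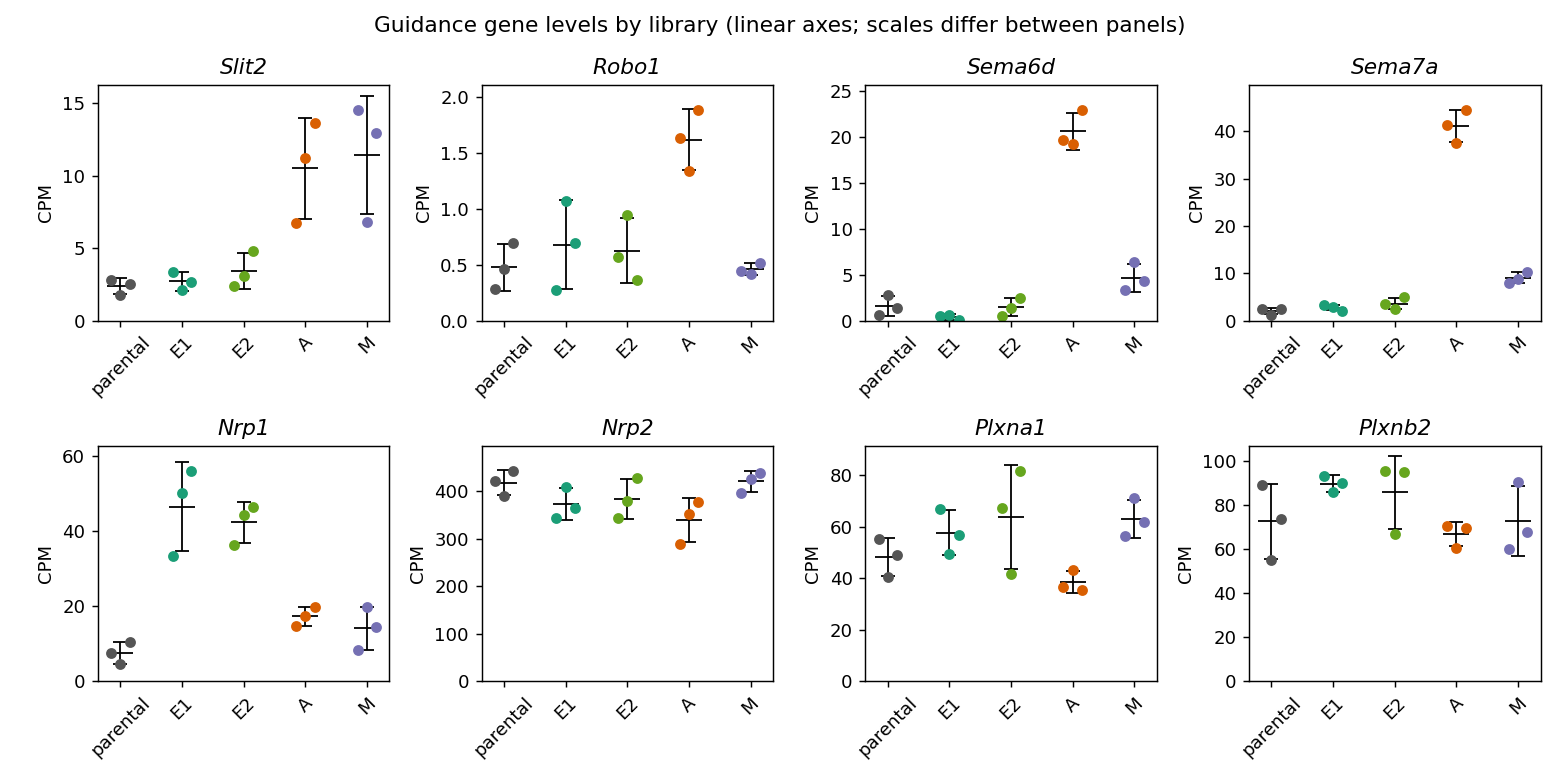
CPM (linear axis, own scale per panel) of each of the 8 genes in the 5 populations, with 1 point per library and bars for the mean ± SD of 3 libraries. Sema6d and Sema7a stand highest in A, Slit2 in A and M, and Nrp1 in E1 and E2, while the population means of Nrp2, Plxna1 and Plxnb2 differ by at most 1.65 times, with all 3 lowest in A.

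Among the receptors, Nrp1 had a different order from the ligands. Nrp1 (gene 18186, chromosome 8, 128358591 to 128505476, GRCm38, plus strand) encodes neuropilin 1, a co-receptor of class 3 semaphorins and of VEGF. It was measured at 7.47, 4.55 and 10.5 CPM in the parental replicates, at 33.3, 50.3 and 56.1 CPM in E1 and at 36.3, 44.4 and 46.5 CPM in E2. A had 14.8, 17.5 and 19.9 CPM, and M had 8.33, 19.8 and 14.4 CPM. E1 and E2 overlapped each other and stood above every library of A, M and the parental population. A overlapped M, and M overlapped the parental population, while A and the parental population did not overlap. The log2 difference from the parental population was 2.67 (SE 0.415) in E1, 2.56 (SE 0.364) in E2, 1.27 (SE 0.368) for A and 0.90 (SE 0.502) for M. The micro-RNA gene Mir1903 lies on the same strand within Nrp1 exons, and its reads cannot be separated from those of Nrp1.

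Nrp2 (gene 18187, chromosome 1, 62703317 to 62818692, GRCm38, plus strand) encodes neuropilin 2, which binds Sema3f and the lymphatic growth factor VEGF-C. Its values were 420, 390 and 442 CPM in the parental replicates, 344, 409 and 365 CPM in E1, and 343, 378 and 428 CPM in E2. The A replicates had 289, 351 and 377 CPM and those of M 396, 426 and 438 CPM. The populations followed the order M, parental, E2, E1, A, and each overlapped its neighbour. A lay below the parental population without overlap, at a log2 difference of -0.31 (SE 0.126), and the highest population mean was 1.24 times the lowest.

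To set the neuropilins side by side, CPM were divided by the length of the longest RefSeq-linked transcript in GENCODE, 3597 bases for Nrp1 and 6723 for Nrp2. On this per-kilobase scale Nrp1 made up 3.22, 2.14 and 4.25% of the summed neuropilin level in the parental replicates, 15.3, 18.7 and 22.3% in E1, and 16.5, 18.0 and 16.8% in E2. It made up 8.74, 8.52 and 8.97% in A and 3.8, 7.98 and 5.78% in M. Nrp2 was thus the more abundant neuropilin in all 15 libraries, and the Nrp1 share was highest in E1 and E2. With the merged length of all exons, an alternative chosen after seeing the data, the mean share was 2.1% in the parental population, 13.0% in E1, 11.8% in E2, 5.84% for A and 3.87% for M, and the order of the populations was kept.

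**Figure D2:**
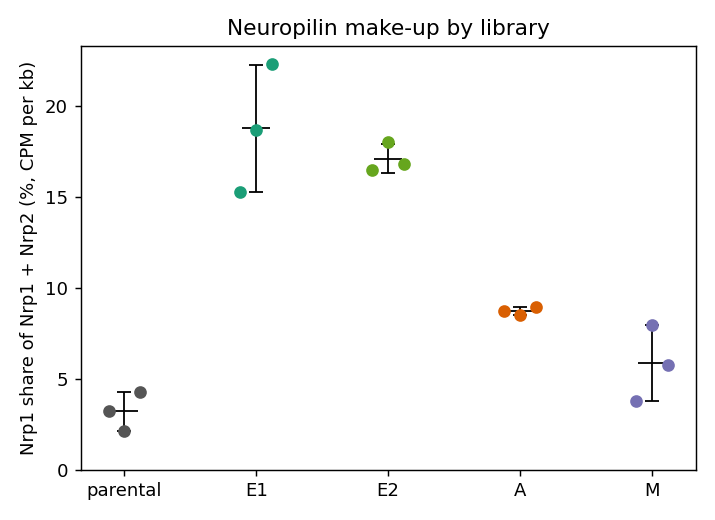
Nrp1 as a percentage of Nrp1 plus Nrp2, both in CPM per kilobase of transcript, with 1 point per library and bars for the mean ± SD of 3 libraries. E1 and E2 lie between 15.3 and 22.3%, A between 8.52 and 8.97%, and M and the parental population between 2.14 and 7.98%.

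Robo1 (gene 19876, chromosome 16, 72027518 to 73047491, GRCm38, plus strand) encodes a Slit receptor of the immunoglobulin superfamily. It was low throughout, at 0.279, 0.459 and 0.693 CPM in the parental replicates, 0.272, 1.07 and 0.694 CPM in E1, and 0.572, 0.943 and 0.365 CPM in E2. In A it was at 1.63, 1.34 and 1.88 CPM and in M at 0.441, 0.417 and 0.518 CPM. A stood above every other library, with a log2 difference of 1.68 (SE 0.354) from the parental population, and the other populations overlapped. Each library held 6 to 61 Robo1 counts. In M, Slit2 was high while Robo1 was at the parental level, a log2 difference of 0.02 (SE 0.337), whereas in A both were higher. Of these rises in A, that of Slit2 is among the calls given further below and that of Robo1 is not.

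Plxna1 (gene 18844, chromosome 6, 89316313 to 89362613, GRCm38, minus strand) encodes plexin A1, a signalling receptor used by class 3 semaphorins with neuropilins and by Sema6d. Its values were 55.3, 40.6 and 49.2 CPM in the parental replicates, 66.8, 49.3 and 56.9 CPM in E1, and 67.4, 41.8 and 81.6 CPM in E2. The A replicates had 36.5, 43.3 and 35.6 CPM and those of M 56.4, 71.0 and 61.9 CPM. The order was E2, M, E1, parental, A, with overlap at each step. A did not overlap E1 or M, and M lay just above the parental libraries at a log2 difference of 0.39 (SE 0.162). The antisense gene Gm26811 overlaps Plxna1 exons, and since the strand setting of the counting is not given in the sources used here, reads of the pair cannot be told apart.

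Plxnb2 (gene 140570, chromosome 15, 89155546 to 89182018, GRCm38, minus strand) encodes plexin B2, a receptor of class 4 semaphorins such as Sema4c. It was measured at 89.3, 55.3 and 73.5 CPM in the parental replicates, 93.4, 86.0 and 89.9 CPM in E1, and 95.5, 66.8 and 95.1 CPM in E2. The A replicates had 70.7, 60.4 and 69.4 CPM and those of M 60.2, 90.7 and 67.6 CPM. Only A and E1 did not overlap, at a log2 difference of -0.43 (SE 0.0799), and the highest population mean was 1.34 times the lowest.

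Per kilobase of transcript and averaged over the 15 libraries, Nrp2 had the highest level at 57.5 CPM per kilobase, followed by Plxnb2 at 11.9, Nrp1 at 7.12, Plxna1 at 6.0 and Sema7a at 3.55. Sema6d was at 0.892, Slit2 at 0.61 and Robo1 at 0.102 CPM per kilobase. The receptors other than Robo1 were thus above the ligands on average. The order depended on the population for Sema7a, which averaged 0.615 CPM per kilobase in the parental population and 12.5 in A, where Plxnb2 averaged 10.3.

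Over the 15 libraries, log2 CPM of the 3 ligands varied together, with Pearson's r of 0.84 for Slit2 with Sema7a, 0.84 for Sema6d with Sema7a and 0.73 for Slit2 with Sema6d. Nrp1 had r of -0.18 with Slit2, -0.38 with Sema6d and -0.06 with Sema7a. These are descriptions of libraries that share 5 populations and their depth, not of independent samples.

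The genes whose log2 CPM followed each of these genes most closely over the 15 libraries were drawn from 8245 named genes (8246 for Robo1) with at least 5 CPM in their highest population. For Sema7a they were Clip2 (r 0.98), Ltbp3 (r 0.972) and Cdk18 (r 0.956). Ltbp3, which encodes a binding protein of latent TGF-beta, averaged 61.3 CPM in the parental population, 206 CPM for A and 93.2 CPM for M. For Sema6d they were Cd47 (r 0.96), Mast4 (r 0.944) and Arhgap6 (r 0.942), and for Slit2 Lrrn4cl (r 0.942), Rflnb (r 0.924) and Gpnmb (r 0.905). Cd47, the "don't eat me" ligand of SIRP-alpha, averaged 98.9 CPM in the parental population, 66.1 CPM in E1 and 148 CPM in A. Gpnmb, a transmembrane glycoprotein, averaged 44.2 CPM in the parental population, 143 CPM for A and 100.0 CPM for M.

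Nrp1 was followed most closely by Smc2 (r 0.933), Ncapg (r 0.921) and Tacc3 (r 0.919). Smc2 and Ncapg encode condensin subunits that compact chromosomes, and Tacc3 a spindle protein. Tacc3 averaged 16.4 CPM in the parental population, 45.9 CPM in E1, 46.0 CPM in E2, 30.3 CPM for A and 23.6 CPM for M. Its mean was thus higher in A than in M and lowest in the parental population, as were the Nrp1 means. The Nrp1 libraries of A and M overlapped. The closest for Robo1 were Stk25 (r 0.886), Col4a5 (r 0.874) and Galnt11 (r 0.865), and for Nrp2 Fkbp9 (r 0.89), Fam168b (r 0.821) and Tmem185a (r 0.81). Plxna1 was followed by Irak1 (r 0.867), Ubr4 (r 0.863) and Pard6b (r 0.861), and those near Plxnb2 included Cdc42bpb (r 0.916) and Srgap2 (r 0.90). Srgap2 encodes a GTPase-activating protein that binds Robo1.

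Position on the chromosome was not used to choose the genes, so each difference was set beside those of the nearest tested genes, 5 on each side where available. Sema7a in A stood at 4.36 while its 10 neighbours, within 1.03 Mb, ranged from -0.65 to 1.16 with a median of 0.35. Slit2 in M stood at 2.19 while its 10 neighbours ranged from -1.32 to 0.71, with a median of 0.23. For Slit2 in A the neighbours reached 2.22, which was Ppargc1a, a transcriptional coactivator of mitochondrial genes.

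Nrp1 in E1 stood at 2.67, and its 8 neighbours ranged from -0.82 to 1.58, the highest being Gm21399. In E2 the values were 2.56 for Nrp1 and -0.97 to 1.68 for its neighbours. Sema6d differed in this respect. In A, where it stood at 3.86, the neighbours Slc12a1 (3.76), Gatm (2.83) and Sqor (2.53) were also higher than in the parental population, and in M, where it stood at 1.69, Gatm (3.39), Sqor (2.55) and Slc12a1 (1.42) were as well. The median of the 10 neighbours was 0.23 for A and 0.06 for M. Gatm and Sqor were also higher in E1, by 4.08 and 2.09, where Sema6d was at -1.92.

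**Figure D3:**
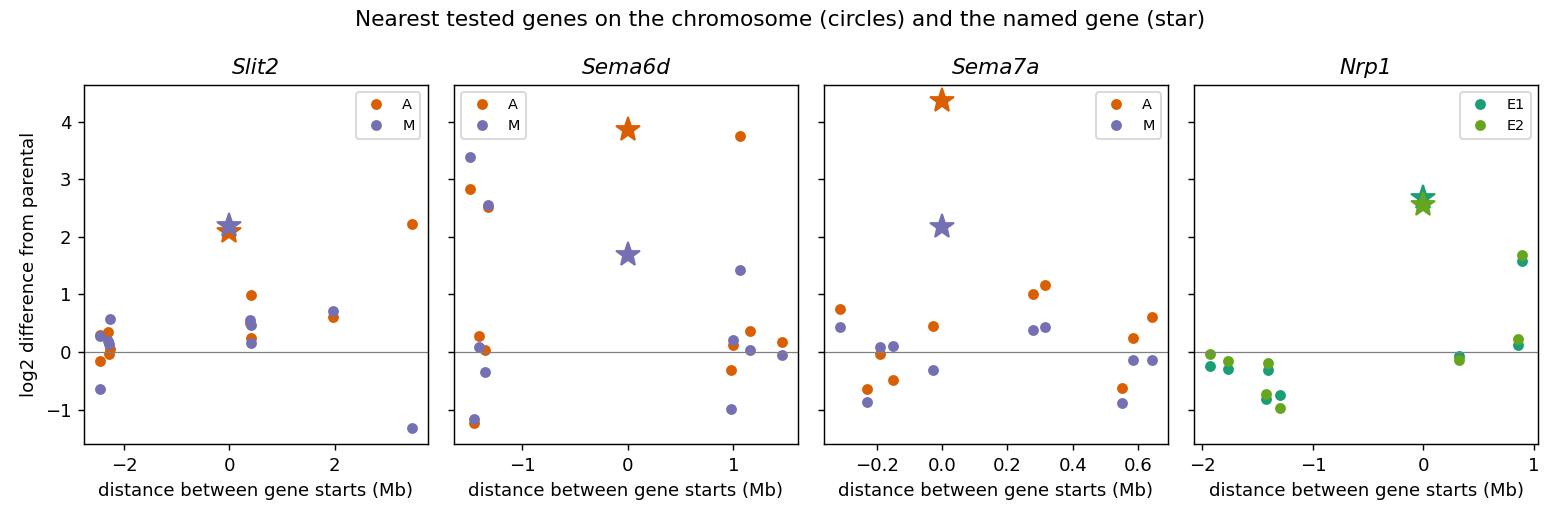
Log2 difference from the parental population (y axis) of Slit2, Sema6d, Sema7a and Nrp1 (stars) and of their nearest tested genes (circles), against the distance between gene starts in Mb (x axis), for the 2 clones in which each gene stood highest. The neighbours of Sema7a stay between -0.89 and 1.16, while 3 neighbours of Sema6d lie at 1.42 or above in both A and M.

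The other genes of these systems were read from a wider list of 93 genes, of which 59 had enough counts. The list was chosen with earlier results of these libraries known, so its calls are not independent of them. The 59 genes were tested with edgeR's quasi-likelihood test. Their p-values were adjusted by the Benjamini-Hochberg method over all 12712 genes in each comparison, with a call at an adjusted p under 0.05. All 4 comparisons with the parental population share the same 3 parental libraries. In E1, 7 of the 59 rose and 5 fell, against 7.77% of all genes higher and 7.35% lower. In E2, 11 rose and 4 fell, against 9.14% and 8.80% of all genes. In A, 26 rose and 3 fell, against 15.1% and 14.9%, and in M, 13 rose and 1 fell, against 7.87% and 6.28%. The median log2 difference of the 59 genes was 0.04 in E1, 0.12 in E2, 0.71 for A and 0.23 for M, while that of all genes lay between -0.01 and 0.03. A difference among the 5 populations was called for 40 of the 59, against 40.9% of all genes. Since the members were selected on these contrasts, their own calls in the same fit are a description, given with no p-value: 1 higher (Nrp1) and 1 lower (Sema6d, with overlapping libraries) of 8 in E1, 2 higher in E2 (Sema7a, Nrp1), 4 higher in A (Slit2, Sema6d, Sema7a, Nrp1) and 2 higher in M (Slit2, Sema7a).

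In the comparisons between clones, 1 of the 59 was called between E2 and E1, against 0.236% of all genes. A against E1 had 34 (29 higher in A, 5 lower), against 29.6% of all genes, and A against E2 had 29 (24 higher, 5 lower), against 22.4%. M against E1 had 10 (9 higher in M, 1 lower), against 3.89%, M against E2 had 5 (4 higher, 1 lower), against 3.50%, and M against A had 13 (2 higher in M, 11 lower), against 17.7%. The counts that changed most when 1 library was left out were M against E2, with 0 without M replicate 3 and 1 without E2 replicate 1 or 2, and E2 against E1, with 0 without any one of the E1 libraries or E2 replicate 3. M against E1 had 5 without E1 replicate 1 or 2 and 6 without E1 replicate 3 or M replicate 3. E1 against the parental population had 7 in all without E1 replicate 2, and E2 against it had 9 without parental replicate 2.

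**Figure D4:**
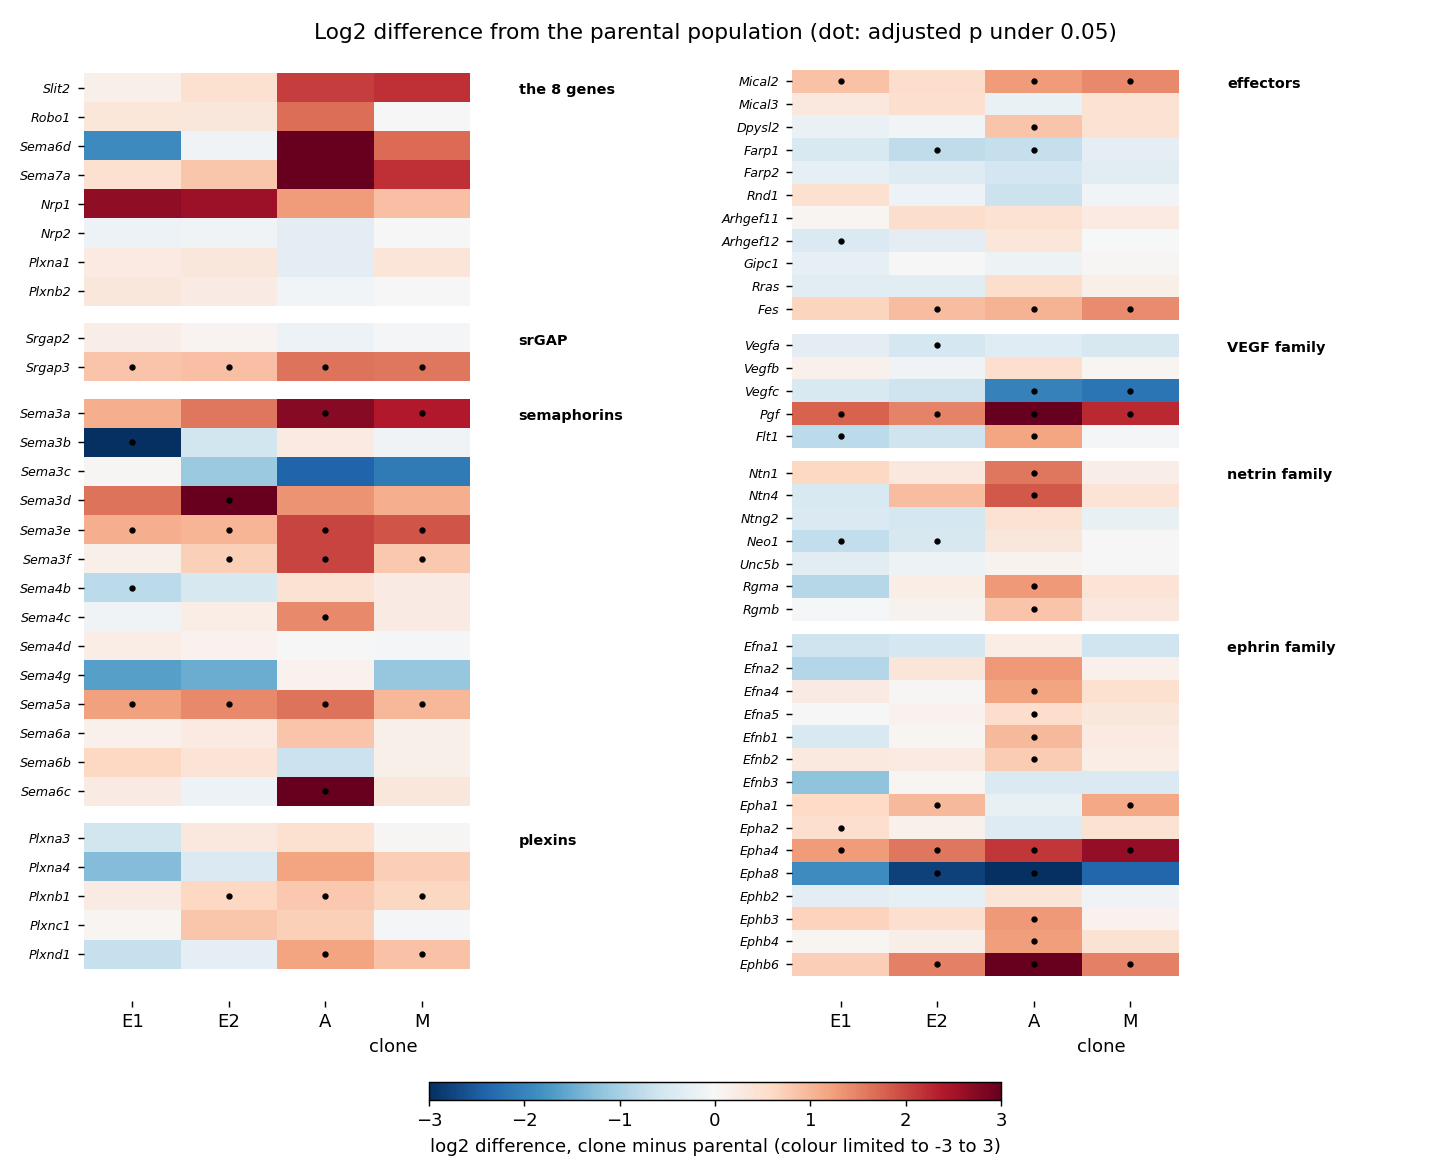
Log2 difference of each clone from the parental population (colour, limited to -3 to 3) for the 8 genes and the 59 tested genes of the wider list, by family. Dots mark an adjusted p under 0.05 (edgeR) and are drawn for the 59 genes alone, since the 8 were selected on these differences; the A column has the most dots, with 26 genes higher and 3 lower.

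Slit2 and Robo1 were the Slit and the Robo that could be measured. Slit1, Slit3, Robo2, Robo3 and Robo4 had 9, 4, 6, 2 and 0 counts over all 15 libraries. Of the intracellular srGAP proteins, which bind Robo receptors, Srgap1 had 7 counts, Srgap2 was not called in any clone, and Srgap3 rose in all 4. Srgap3 went from 17.6 ± 3.42 CPM (SD, n = 3) in the parental population to 31.8 ± 4.36 in E1, 32.8 ± 9.47 in E2, 54.1 ± 5.74 for A and 53.9 ± 10.9 for M. Its log2 fold change was 1.62 (SE 0.187, adjusted p = 7.55e-07 by edgeR) in A and 1.61 (SE 0.243, adjusted p = 2.55e-06) in M. It was also called higher in A than in E1 and E2, the latter not without E2 replicate 1, and higher in M than in E1 and E2, with adjusted p of 0.0239 and 0.0370 (edgeR) that did not hold without any of 4 and any of 5 libraries, M replicate 3 and E1 replicate 3 among them.

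Of 14 tested semaphorins outside the 8 genes, 2 rose and 2 fell in E1, 4 rose in E2, 6 rose in A and 4 rose in M. Sema3e and Sema5a rose in all 4 clones. Sema3e, a secreted ligand that binds plexin D1 without a neuropilin, was at 34.5 ± 10.1 CPM in the parental population, 73.1 ± 14.3 in E1, 69.4 ± 29.5 in E2, 141 ± 6.36 for A and 127 ± 31.3 for M. The call was lost in E1 without any of 4 libraries (parental replicates 1 and 3, E1 replicates 2 and 3) and in E2 without any of 9, while it held in A and M. Sema5a, a membrane-spanning semaphorin with thrombospondin repeats, went from 8.17 ± 1.04 CPM to between 16.3 ± 3.49 in M and 25.4 ± 0.828 in A.

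Sema3a, a ligand of Nrp1, went from 0.479 ± 0.333 CPM in the parental population to 3.59 ± 1.26 in A (log2 2.72, SE 0.669, adjusted p = 0.00126, edgeR) and 2.87 ± 0.62 in M (log2 2.41, SE 0.612, adjusted p = 0.00788, edgeR). In E1 and E2 Sema3a was at 1.14 ± 1.04 and 1.58 ± 0.936 CPM and was not called (adjusted p = 0.236 and 0.0616, edgeR), while DESeq2 called it in E2 (adjusted p = 0.0415). Between clones it was called in A against E1 (adjusted p = 0.0343, edgeR), a call that did not hold without E1 replicate 1 or 3 or A replicate 1 or 2, and not in A against E2 (0.167), M against E1 (0.230) or M against E2 (0.515). Sema3f, a ligand of Nrp2, was at 17.0 ± 3.07 CPM in the parental population, 28.0 ± 2.37 in E2, 69.3 ± 4.09 for A and 30.2 ± 4.41 for M. It rose in these 3 clones, by a log2 fold change of 2.02 (SE 0.154) in A. Sema4c, a ligand of Plxnb2, rose in A, from 8.90 ± 1.55 to 24.0 ± 1.28 CPM.

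The other called semaphorins passed the edgeR test against the parental population in 1 clone each. Sema6c rose in A, from 0.265 ± 0.285 to 2.97 ± 0.838 CPM (log2 3.14, SE 0.971, adjusted p = 0.00425, edgeR), and was called higher in A than in E1, E2 and M as well, the last not without A replicate 1 or 3 or M replicate 2. Sema3d had 0 counts in the parental population and 1.34 ± 0.464 CPM in E2. That E2 mean was 35.4 times a floor of 3 counts over the 3 parental libraries, with the E2 spread not included. Sema3d was not called in E2 against E1 (adjusted p = 0.395, edgeR). DESeq2 also called it higher than parental in E1 (adjusted p = 0.0347) and A (adjusted p = 0.0442). Sema3b fell in E1, from 1.44 ± 0.139 to 0.0932 ± 0.0328 CPM (log2 -3.22, SE 0.187, adjusted p = 0.000195, edgeR), and it was called lower in E1 than in E2, A and M as well, the first of these the 1 call between E2 and E1, which did not hold without any one of the E1 libraries or E2 replicate 3. Sema4b fell in E1 as well, from 17.6 ± 1.86 to 10.0 ± 0.924 CPM. DESeq2 also called Sema4b lower than parental in E2 (adjusted p = 0.0352) and higher in A (adjusted p = 0.0473). The edgeR values there were 0.0594 and 0.0616.

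Of 5 tested plexins outside the 8 genes, 0 were called in E1 by edgeR, where 3 had an unadjusted p under 0.05 and DESeq2 called 1 (Plxna4). In E2 1 rose, in A 2 and in M 2. Plxnd1, the receptor of Sema3e, was at 8.41 ± 2.28 CPM in the parental population, 19.5 ± 1.96 for A and 15.4 ± 0.426 for M. In M its call was lost when any one of 5 libraries was left out (parental replicates 2 and 3, and each M replicate). Plxnb1 was at 28.5 ± 4.45 CPM in the parental population, 43.4 ± 12.6 in E2, 50.3 ± 7.7 for A and 44.6 ± 6.35 for M. In E2 the Plxnb1 call was lost without any of 4 libraries (parental replicates 2 and 3, E2 replicates 1 and 3) and in M without any of 3 (parental replicates 2 and 3, M replicate 2). Srgap3, Sema3f, Sema4c, Plxnd1 and Plxnb1 are described beside the rule for naming genes and were chosen after their values were seen, as partners of the 8 genes or of their ligands and receptors.

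Of 11 tested intracellular effectors, 1 rose and 1 fell in E1, 1 rose and 1 fell in E2, 3 rose and 1 fell in A, and 2 rose in M. Farp1, a guanine nucleotide exchange factor, fell in E2 and A, from 36.2 ± 6.43 CPM to 21.3 ± 3.79 and 22.1 ± 1.45. The 3 that rose in A, named after their values were seen, were Mical2, an enzyme that oxidises actin, Dpysl2, a cytosolic mediator of Sema3a signals, and the tyrosine kinase Fes.

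Among the VEGF ligands and receptors that bind neuropilins, Vegfd, Kdr and Flt4 had 24, 1 and 2 counts in all, and 5 genes were tested. Pgf, which encodes placental growth factor, a ligand of Flt1 and neuropilins, rose in all 4 clones, from 0.505 ± 0.377 CPM to 1.89 ± 0.512 in E1, 1.53 ± 0.907 in E2, 5.2 ± 1.91 for A and 2.69 ± 0.712 for M. The call in E1 needed both parental replicate 2 and E1 replicate 1, and in E2 it did not hold without any of 6 libraries (parental replicates 1 and 2, E2 replicates 2 and 3, A replicates 2 and 3). With a replicate block the adjusted p in E2 was 0.0510 (edgeR). Vegfc, the ligand of Flt4 and Nrp2, fell from 9.19 ± 2.61 CPM to 2.22 ± 1.0 in A (log2 -2.02, SE 0.491, adjusted p = 4.29e-05, edgeR) and 1.95 ± 0.763 in M (log2 -2.20, SE 0.422, adjusted p = 5.13e-05, edgeR). Vegfa fell in E2, from 56.5 ± 11.6 to 39.5 ± 2.17 CPM, with an adjusted p of 0.0489 (edgeR) that passed 0.05 when any one of 11 libraries was left out, up to 0.241.

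Flt1, the VEGF receptor that Pgf binds, fell in E1, from 6.22 ± 0.898 to 3.54 ± 0.383 CPM, and rose in A, to 14.1 ± 1.46 CPM. The fall in E1 was lost without any of 4 libraries (parental replicates 1 and 3, E1 replicates 1 and 2). The rise in A had a log2 fold change of 1.18 (SE 0.147, adjusted p = 0.000462, edgeR). Flt1 was the 1 gene of the 59 that edgeR called in opposite directions in different clones. With DESeq2, Sema4b, Plxna4, Arhgef12 and Neo1 were also called lower in E1 and higher in A. Of the 7 endothelial markers, 0 passed the filter on low counts.

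Of 7 tested netrin-family genes, 1 fell in E1, 1 fell in E2, 4 rose in A and 0 were called in M by edgeR or DESeq2, with 0 at an unadjusted p under 0.05. The one that fell was Neo1, the receptor neogenin, at 188 ± 19.6 CPM in the parental population, 114 ± 0.719 in E1 and 133 ± 20.0 in E2. In E2 the call was lost without parental replicate 2 or E2 replicate 1. Neo1 was at 236 ± 14.2 CPM in A, above the parental libraries without overlap. DESeq2 called it higher there (adjusted p = 0.0422) and edgeR did not (adjusted p = 0.0718). The 4 that rose in A, named after their values were seen, were Ntn1, Ntn4, Rgma and Rgmb, of which Rgma and Rgmb encode ligands of neogenin. In A the calls were lost for Ntn4 without parental replicate 1 or A replicate 1, and for Rgma without parental replicate 1 or 3 or A replicate 1 or 2.

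Of 15 tested ephrins and Eph receptors, 2 rose in E1, 3 rose and 1 fell in E2, 8 rose and 1 fell in A, and 3 rose in M. Epha4, a receptor of both ephrin classes, rose in all 4 clones, from 4.82 ± 2.05 CPM to 11.8 ± 3.63 in E1, 14.8 ± 3.11 in E2, 21.7 ± 3.6 for A and 30.6 ± 15.3 for M. The E1 call was lost without any of 4 libraries (parental replicates 1 and 2, E1 replicates 2 and 3). Ephb6, a receptor without kinase activity, rose from 1.05 ± 0.186 CPM to 3.11 ± 0.608 in E2, 8.93 ± 2.37 for A and 3.07 ± 1.51 for M. In E2 its call did not hold without any of 4 libraries (the 3 parental replicates and E2 replicate 3) and in M without any of 5 (the 3 parental replicates, M replicates 2 and 3). Epha8 fell from 2.4 ± 0.949 CPM to 0.278 ± 0.184 in E2 and 0.17 ± 0.164 in A, and its E2 call did not hold without any of 4 libraries (parental replicates 1 and 3, E2 replicates 1 and 2). Of the 8 rises in A, some were lost with 1 library left out, named here after their values were seen. They were Efna4 (parental replicate 3 or A replicate 1), Efna5 (parental replicate 1 or A replicate 3) and Efnb1 (parental replicate 1). Ephb3 was lost without parental replicate 2 or 3 or A replicate 2 or 3.

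Across the wider list, Srgap3, Sema3e, Sema5a, Pgf and Epha4 rose in all 4 clones, in comparisons that share the same parental libraries. The share of all genes that rose in all 4 clones is not given here. Of the 8 genes, Slit2, Robo1, Sema7a and Nrp1 had a positive difference in mean log2 CPM from the parental population in each clone. For Robo1 in M it was only 0.02 (SE 0.337), and -0.28 to 0.3 when 1 library was left out. The mean CPM of Robo1 was lower in M than in the parental population, at 0.458 against 0.477. The share of all genes with a positive difference in each clone is not given here either. The libraries overlapped the parental ones in M for Nrp1 and in E1 for Sema7a. They also overlapped in E1 and E2 for Slit2, and in E1, E2 and M for Robo1.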

How the data were processed

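Raw counts per gene were made and deposited by the authors, with HISAT2 and featureCounts named in the submitters' processing notes next to the builds GRCm38 and mm10. Tool versions, the annotation and the strand setting are not given in the sources used here. The deposited normalized, transformed and DESeq2 tables were not used here. Counts were analysed in R 4.3.3 with edgeR 4.0.16 (limma 3.58.1): filterByExpr (minimum count 10, minimum total count 15), TMM factors of 0.847 to 1.11, and 1 robust quasi-likelihood fit of all 15 libraries with the population as its term. The common dispersion was 0.0651. Log2 CPM used a prior count of 2. SE was computed from the log2 CPM SDs of both populations. The script was tested on simulated data.

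Members and lists were chosen with earlier results of these data known, so the members, which were part of the fit, are given without p-values and their calls only as a description. Named wider genes were the up to 4 largest and 4 smallest called log2 fold changes per clone, at 1 CPM or more in the higher population and without replicate overlap, beside those marked in the text. Likeness was read from the 3 highest Pearson r, and neighbours were named when they differed by 1 or more (log2) in the direction of the member. A few of the genes these rules take are not reported here. Intervals and floors cover counting error or replicate spread alone, since reads counted without molecular identifiers can be copies of the same molecule. Symbols and coordinates came from RefSeq and GENCODE tables: 25275 identifiers were named by the first, 18 by the second and 1886 stayed unnamed. Alternatives were RLE factors, no filter, no 6 most abundant genes, a prior count of 0.5, a replicate block, DESeq2 1.42.0 and leaving out each library.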

Additional observations from a re-analysis of the deposited data

Results flagged for a closer look

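In Sema6d, Plxna1 and Plxnb2, every library of 1 clone lay above the parental mean and every library of another clone below it. For Sema6d this was A against E1, 5.78 apart in mean log2 CPM, and M against E1, 3.61 apart. For Plxna1 it was E1 against A, 0.58 apart, and M against A, 0.71 apart, and for Plxnb2 it was E1 against A, 0.43 apart. Whether the clones' effects differ was not tested on independent libraries, and since the genes were selected on these ones, the values are a description. The share of all tested genes with such a pattern is not given here, so the pattern is not shown to be particular to these genes. From the wider list, Flt1 was lower than parental in E1 and higher in A, and A against E1 itself was called, at a log2 fold change of 1.97 (SE 0.124, adjusted p = 9.22e-07, edgeR's quasi-likelihood test).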

How the results depend on the processing

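For the 8 genes, leaving out 1 library moved small differences from the parental population across 0, as for Robo1 in E1 (-0.02 to 0.83) and Sema6d in E2 (-0.68 to 0.45), while for Sema7a in A the range was 4.04 to 4.51 and for Nrp1 in E1 2.35 to 2.95. Of the recomputed counts of called genes in the wider list, 203 stayed within 1.5 times, 14 were lower and 3 higher. The 3 higher were M against E2, 5 genes as reported, with 10 under no filter, 9 under DESeq2 and 9 with the replicate block. With 1 library left out, E1 against parental gave 7 to 13, E2 against parental 9 to 15, E2 against E1 0 to 1, M against E1 5 to 10 and M against E2 0 to 6; fewer libraries were then fitted. Replicate numbers were not taken as pairing: of 30 same-numbered pairs of libraries, 4 had deviations from their population means correlated above 0.1 (median r 0.0539). The replicate block changed no other count of the wider list by over 1.5 times and ended 1 call of the wider list against the parental population, Pgf in E2.

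Over all genes, calls in E1 against parental went from 1922 to 1084 without E1 replicate 2 and 1173 without E1 replicate 3, and in M against parental from 1798 to 1145 without M replicate 3. Between E2 and E1 they went from 30 to 128 without the filter or with DESeq2 and 68 with the block, in M against E2 from 445 to 790, 743 and 699, and in M against E1 from 495 to 817 without the filter. With 1 library left out these 3 counts ranged from 9 to 46, 208 to 723 and 210 to 824, and M against A went from 2256 to as few as 1479. Robo1, Sema3d and E1 Sema6d rest on few counts, which limits their precision. Per-kilobase values depend on the transcript chosen.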
